A study of Mus musculus with 10 samples.

Results

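Collagens are trimers of chains, each encoded by its own gene, and the mouse genome holds a large family of them. All rows whose symbol is Col, a number, a and a number were taken as collagen chain genes, which gave 44 of the 48897 rows in each of the 2 expression tables. They were grouped by the structure their chains build: 11 fibrillar, 8 basement membrane, 2 epithelial anchoring, 6 beaded filament, 9 fibril-associated, 3 short-chain network, 3 other transmembrane and 2 other genes. No measured level was used to choose or group them.

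Fibrillar collagens such as types I and III form the rope-like fibres of connective tissue and are made mainly by fibroblasts and smooth muscle cells. Type IV collagen forms the sheet-like network of the basement membrane on which epithelium rests, and types VII and XVII tie the basal epithelial cell to that sheet. In the prostate the glands are surrounded by a stroma of smooth muscle and fibroblasts, and the fibrillar genes are widely used as markers of that stroma.

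The study deleted Arid1a, which encodes a subunit of the SWI/SNF (BAF) chromatin remodelling complex, in 2 prostate cancer models. Prostate epithelium was sorted as EpCAM-positive, CD45-negative cells from 3-month-old C57BL/6 mice, with 3 libraries (A, B and C) as control and 3 that also carried Arid1aPC-/-. All 6 libraries, control included, came from mice with another engineered deletion in the prostate, so the control is not wild type, and both deletions were driven by a Cre under the Probasin promoter, which acts in prostate epithelium. Myc-CaP, a cell line from a prostate cancer of a c-Myc transgenic mouse (strain FVB), was sequenced as 2 empty vector libraries and 2 of Arid1a KO cells, made with a guide RNA and Cas9, numbered 1 and 2 in each group. Whether the KO line is 1 clone, and whether libraries 1 and 2 had separate origins, is not given in the sources used here. The labels also do not say whether the cells were cultured or sorted from grafted tumours, and the study sequenced both. The p-values in Myc-CaP therefore measure only the spread between these libraries.

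Epithelium values are in RPKM (reads per kilobase of gene, scaled by the reads of the library) and Myc-CaP values in TPM (length-scaled values set to a common sum in each library), and levels are compared only within a table. A gene was tested when its mean was at least 0.5 in its table, and it was called when the adjusted p-value of limma on log2(value + 1), corrected over all genes tested, was under 0.05. Such fold changes understate the change of low genes, so ratios of mean levels are given beside some of them where the genes are low.

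Arid1a itself was not lower in the sorted cells with the Arid1a KO label. Its level was 27.8, 21.9 and 26.5 RPKM in control A, B and C but 31.1, 28.8 and 30.8 RPKM in the KO-labelled libraries (log2 fold change 0.25 ± 0.09 SE, limma adjusted p = 0.054). The table holds 1 value for the whole gene, so the deleted stretch was not measured on its own, and these libraries are called KO-labelled throughout. The paper also stained prostate sections for ARID1A protein, which these RNA levels do not measure. In Myc-CaP, Arid1a was 60.5 and 61.0 TPM with the empty vector and 39.5 and 40.3 TPM in Arid1a KO, without overlap (log2 fold change -0.59 ± 0.06 SE, limma adjusted p = 0.010).

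The sorted epithelium carried its own markers and those of other cells. Epcam, the gene of the positive sort marker, was 279 to 351 RPKM in control and 183 to 225 RPKM in the KO-labelled libraries. It was called lower (log2 fold change -0.59, limma adjusted p = 0.0041). Ptprc, which encodes CD45, the negative sort marker, was 26.0 to 30.3 and 56.2 to 58.1 RPKM and was called higher (0.98). Krt8 was between 781 and 983 RPKM over the 6 libraries, yet Col1a1, the marker of type I collagen, ranked 82 of 48897 rows by mean level. Fibroblast markers (10 genes) summed to 796 to 1089 RPKM in control and 373 to 442 RPKM in the KO-labelled libraries. Of the 10, 9 were called, 7 lower and 2 higher. Dcn, Dpt and Lum, among the lower ones, were at -1.75, -1.67 and -1.23 on the log2 scale. The higher ones were Fap (0.43) and Pdpn (0.33). Each count of calls in these libraries stands against 57.1% of all genes tested, 27.5% called higher and 29.6% lower. Smooth muscle markers (6 genes) summed to 119 to 138 and 102 to 128 RPKM, and all 6 were called. Of these, 4 were lower (Des -1.18, Tagln -0.80 and Cnn1 -0.75 among them) and 2 higher (Actg2 0.82 and Acta2 0.74). Endothelial markers (6 genes, 1 called higher and 1 lower) summed to 46.9 to 56.4 and 45.3 to 54.4 RPKM, and glial markers (3 genes, 1 called lower) to 3.27 to 6.11 and 2.46 to 3.58 RPKM. Leukocyte markers (6 genes, all called higher) summed to 908 to 985 and 2049 to 2421 RPKM, and luminal markers (4 genes, 2 called lower) to 1815 to 2217 and 1670 to 1779 RPKM. Fewer cells of a type and less RNA per cell cannot be told apart in these samples, and the part of other cell types in the results was not tested.

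2 epithelium libraries stood below the others of their group for collagens. Of the 34 tested collagen genes, 29 (85.3%) had their lowest control level in library B, against 44.4% of all genes tested. In the KO-labelled group, 23 of the 34 (67.6%) were lowest in library C, against 27.7% of all genes. All collagen genes together made up 0.530%, 0.369% and 0.578% of the summed RPKM in control A, B and C and 0.598%, 0.617% and 0.432% in the KO-labelled libraries A, B and C. The total level therefore overlapped between the groups, and its spread within a group lay between libraries that share a genotype.

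Collagen genes moved in both directions between the groups of sorted epithelium. In all, 17 of the 34 tested collagen genes were called, against 57.1% of all 16275 genes tested. Of these, 8 were higher in the KO-labelled libraries (27.5% of all genes were called higher) and 9 were lower (29.6% of all genes were called lower). Groups stood fully apart in 19 of the 34 (8 upward, 11 downward), against 66.7% of all genes in either direction. The 34 genes had a median log2 fold change of -0.07 and all tested genes one of -0.03. A share near or under the background is no result about the family, and the values of its members by class follow. Of the tested genes, 5 (Col4a3, Col4a4, Col23a1, Col25a1 and Col28a1) had a mean under 0.5 RPKM in 1 group and entered the test through the other.

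**Figure D1:**
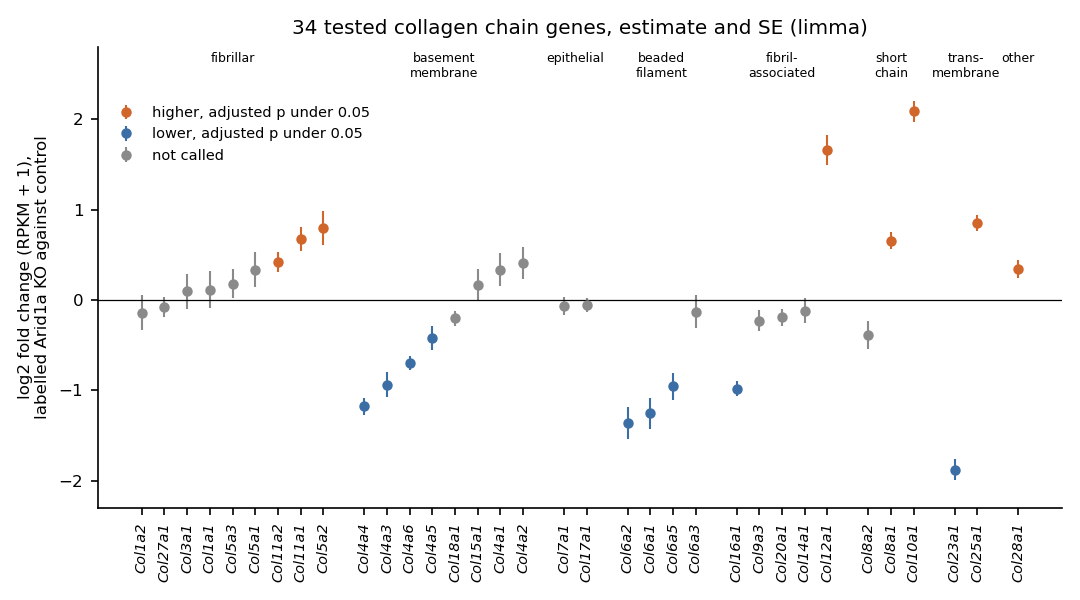
Log2 fold change of the 34 tested collagen chain genes in sorted epithelium (vertical axis, KO-labelled libraries against control, on the log2(RPKM + 1) scale), by class and symbol (horizontal axis). Points are limma estimates and bars their SE, coloured by call. 8 genes lie above 0 and 9 below it with a call, and both epithelial anchoring genes lie close to 0.

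The major fibrillar chains did not differ beyond the spread between libraries. Col1a1, the more abundant chain of type I collagen, was 636, 473 and 697 RPKM in control A, B and C and 723, 752 and 490 RPKM in the KO-labelled libraries. Col1a2, its partner chain, was 482, 349 and 533 RPKM in control and 452, 467 and 318 RPKM in the KO-labelled libraries. Col3a1, the chain of type III collagen, was 525, 383 and 587 RPKM in control and 593, 581 and 418 RPKM in the KO-labelled libraries. In all 3 genes control B and KO-labelled C were the low ones, and the groups overlapped. The log2 fold changes were 0.11 ± 0.20 SE for Col1a1, -0.14 ± 0.20 SE for Col1a2 and 0.10 ± 0.19 SE for Col3a1, with limma adjusted p-values of 0.650, 0.567 and 0.693.

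The minor fibrillar chains, which copolymerise with types I and II collagen and set the width of fibres, held the 3 calls of the class. These were 3 of 9 tested fibrillar genes, all higher, against 27.5% of all genes called higher. Col5a2, a chain of type V collagen, was 25.5 to 39.6 RPKM in control and 46.1 to 66.8 RPKM in the KO-labelled libraries (log2 fold change 0.80 ± 0.19 SE, limma adjusted p = 0.0080). Its partner Col5a1 was 26.9 to 42.7 and 34.7 to 50.04 RPKM and was not called (0.33 ± 0.19 SE, limma adjusted p = 0.177). The groups of Col5a2 stood apart, and those of Col5a1 overlapped. The 2 type XI chains were low and both higher: Col11a1 at 0.614 to 1.11 and 1.80 to 2.48 RPKM (log2 fold change 0.67) and Col11a2 at 0.927 to 1.14 and 1.44 to 2.11 RPKM (0.42). Their mean levels were 2.22 and 1.66 times higher in the KO-labelled libraries. The call of Col11a2 was lost without KO-labelled B, without a filter on low values and at a 1.5-fold limit. Of the other 4 fibrillar genes, Col5a3 and Col27a1 were tested and not called, and Col2a1 and Col24a1 stayed under 0.5 RPKM.

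In the basement membrane class 4 of 8 genes were called, against 57.1% of all genes tested. All 4 were lower (29.6% of all genes were called lower) and were type IV chains of lower level. Col4a1 and Col4a2, the chains of the network found in nearly all basement membranes, were not called. Col4a1 was 69.6, 48.2 and 76.4 RPKM in control and 87.0, 89.1 and 66.7 RPKM in the KO-labelled libraries (log2 fold change 0.33 ± 0.18 SE, limma adjusted p = 0.155). Col4a2 was 58.4, 39.3 and 60.3 RPKM in control and 74.7, 77.0 and 57.3 RPKM in the KO-labelled libraries (0.41 ± 0.18 SE, limma adjusted p = 0.086). The low libraries were again control B and KO-labelled C, and the groups overlapped in both genes. Col4a2 was called without KO-labelled C, and also when the libraries were rescaled to the same sum.

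Col4a3, Col4a4, Col4a5 and Col4a6, the chains of the type IV networks restricted to some basement membranes such as those of the kidney and lung, were all lower. Col4a4 was 2.05, 1.69 and 2.20 RPKM in control and 0.295, 0.304 and 0.344 RPKM in the KO-labelled libraries (log2 fold change -1.18 ± 0.10 SE, limma adjusted p = 8.16e-05). Every control library lay above every KO-labelled library, and the mean level was 6.30 times higher in control. Col4a3 was 1.02 to 1.87 and 0.237 to 0.347 RPKM (-0.94, mean 5.06 times higher in control). Col4a3 and Col4a4 entered the test through control, with means of 0.300 and 0.314 RPKM in the KO-labelled libraries. Col4a6 was 5.70 to 6.44 and 3.23 to 3.54 RPKM (-0.70). Col4a5 was 7.11 to 10.6 and 5.81 to 6.96 RPKM (-0.42), and its call was lost in 7 of 14 alternative settings, among them the removal of control A or C or of KO-labelled A or C. Col15a1 and Col18a1, chains of the collagens at the outer face of vascular and epithelial basement membranes, were not called (0.17 and -0.21, limma adjusted p = 0.431 and 0.056). Without control B, Col18a1 was called lower (-0.26).

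The 6 type IV genes lie in 3 head-to-head pairs in the GENCODE M21 annotation of GRCm38. Col4a1 and Col4a2 overlap by 22 bases on chromosome 8, Col4a4 and Col4a3 are 71 bases apart on chromosome 1, and Col4a6 and Col4a5 are 1308 bases apart on chromosome X. The ratio of Col4a1 to Col4a2 lay between 1.16 and 1.27 in the 6 epithelium libraries, and that of Col4a3 to Col4a4 between 0.600 and 1.04. The whole interval between the starts of Col4a4 (to the left) and Col4a3 (to the right), chr1:82586850-82586920 on the plus strand of GRCm38.p6 (RefSeq), is shown because both genes it separates were lower. It holds no match to TATAAA (the motif of TATA-box promoters), to CCAAT or to GGGCGG (the GC box) on either strand, so no capitals are set.
Col4a4 to Col4a3 interval: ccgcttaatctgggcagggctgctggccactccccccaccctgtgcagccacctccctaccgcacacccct

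**Figure D2:**
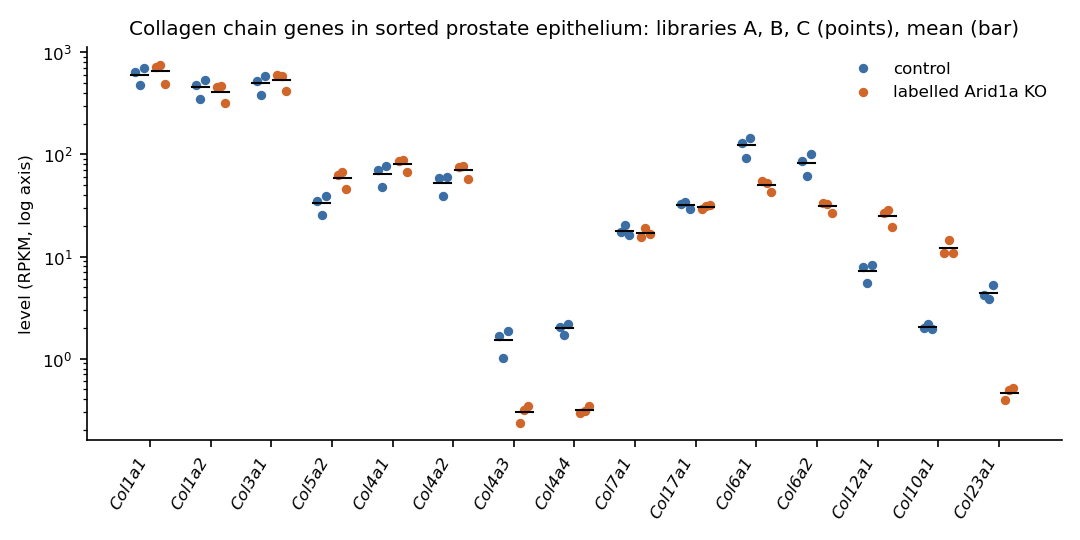
Level in RPKM (vertical log axis) of 15 collagen chain genes in sorted epithelium, 3 control libraries beside 3 KO-labelled ones. Points are libraries A, B and C in that order from left to right, and bars are means. Col5a2, Col4a3, Col4a4, Col6a1, Col6a2, Col12a1, Col10a1 and Col23a1 show groups that do not overlap, and the middle control point and the last KO-labelled point are low for the abundant chains.

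The 2 epithelial anchoring collagens did not differ beyond the spread between libraries. Col17a1, the transmembrane collagen of hemidesmosomes, was 33.0, 34.2 and 29.3 RPKM in control and 29.4, 31.1 and 32.2 RPKM in the KO-labelled libraries (log2 fold change -0.06 ± 0.08 SE, limma adjusted p = 0.549). Col7a1, the chain of anchoring fibrils, was 17.2, 20.1 and 16.3 RPKM in control and 15.5, 18.9 and 16.7 RPKM in the KO-labelled libraries (-0.07 ± 0.10 SE, limma adjusted p = 0.590). The groups overlapped in both genes, and control B was their highest library, not the lowest. Both turned to a positive sign when the libraries were rescaled to the same sum, still without a call.

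Hemidesmosome and basement membrane genes, whose structures these collagens join, are given against the 57.1% of all genes that were called. Of 7 hemidesmosome and laminin-332 genes reported here, 6 were called, 5 higher and 1 lower, with a median log2 fold change of 0.56. Itgb4 and Itga6, the integrin pair of the hemidesmosome, had log2 fold changes of 1.48 and 1.17, and Lama3 and Lamb3, chains of laminin-332, 1.18 and 0.56. The basal keratins Krt14 and Krt5 had log2 fold changes of 2.45 and 1.34 and were called. Krt15 and Trp63, the other basal markers, went the other way without a call (-0.37 and -0.24), and the groups of Krt15 stood apart. The 4 basal markers summed to 1331 to 1884 RPKM in control and 2309 to 2584 RPKM in the KO-labelled libraries. Of 11 other basement membrane genes, 7 were called, 2 higher and 5 lower, and the leading 4 were laminin chains: Lama1 1.70, Lama2 -1.36, Lamb2 -0.67 and Lamb1 -0.65 on the log2 scale.

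Type VI collagen, which forms beaded filaments close to cell surfaces, was called lower in 3 of 4 tested chains, against 29.6% of all genes. Col6a1 was 130, 92.2 and 146 RPKM in control and 54.8, 52.4 and 43.3 RPKM in the KO-labelled libraries (log2 fold change -1.25 ± 0.17 SE, limma adjusted p = 6.99e-04). Col6a2 was 85.7, 61.1 and 101 RPKM in control and 33.7, 32.7 and 26.6 RPKM in the KO-labelled libraries (-1.36 ± 0.18 SE, limma adjusted p = 6.01e-04). No library of one group reached the range of the other for these genes, whose proteins assemble with that of Col6a3. Col6a3 was 14.7 to 24.6 and 15.8 to 19.6 RPKM and was not called (-0.13 ± 0.18 SE, limma adjusted p = 0.555). Without control B, its lowest control library, it was called lower (-0.34). Col6a5 was lower (4.29 to 6.91 and 2.36 to 2.62 RPKM, -0.96), and Col6a4 and Col6a6 were under 0.5 RPKM. Col6a1 and Col6a2 lie 85161 bases apart on the same strand of chromosome 10, and Col6a3 is on chromosome 1.

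Among the fibril-associated collagens, which decorate the surface of fibres, 1 of 5 tested genes was called higher and 1 lower. Of all genes, 27.5% were called higher and 29.6% lower. Col12a1 was 7.83, 5.55 and 8.19 RPKM in control and 26.7, 28.4 and 19.6 RPKM in the KO-labelled libraries (log2 fold change 1.66 ± 0.17 SE, limma adjusted p = 1.98e-04). The lowest KO-labelled library was above the highest control. Col16a1 was 40.5 to 44.6 and 18.8 to 22.8 RPKM (-0.98), also without overlap, and control B was its highest library. Col14a1, Col9a3 and Col20a1 were tested and not called, though Col14a1 was called lower (-0.28) without control B, and Col9a1, Col9a2, Col19a1 and Col22a1 were under 0.5 RPKM in every library.

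Among the tested genes, Col10a1 and Col23a1 had the largest absolute changes on the log2(RPKM + 1) scale. Col10a1, a short-chain network collagen best known from hypertrophic cartilage, was 2.02, 2.21 and 1.96 RPKM in control and 10.9, 14.6 and 10.9 RPKM in the KO-labelled libraries (log2 fold change 2.09 ± 0.12 SE, limma adjusted p = 1.87e-05). Its mean level was 5.88 times higher there, and the control libraries lay within a narrow band. Col23a1, a transmembrane collagen of epithelial cells, was 4.22, 3.80 and 5.23 RPKM in control and 0.393, 0.489 and 0.511 RPKM in the KO-labelled libraries (-1.88 ± 0.11 SE, limma adjusted p = 2.66e-05). Its mean level was 9.51 times higher in control. It entered the test through control, with a mean of 0.464 RPKM in the KO-labelled libraries. Col8a1, another short-chain gene, was 6.38 to 7.11 and 9.75 to 12.6 RPKM (0.66), and Col8a2 was not called (-0.39, limma adjusted p = 0.069) unless control B was left out (-0.49, lower). Col25a1, a transmembrane collagen, was 0.341 to 0.452 and 1.47 to 1.67 RPKM (0.85, mean 3.75 times higher in the KO-labelled libraries). Col28a1 was 0.378 to 0.614 and 0.824 to 0.915 RPKM (0.34, mean 1.82 times higher there), a call lost in 3 of 13 alternative settings. Col25a1 and Col28a1 entered the test through the KO-labelled libraries. Col26a1 and Col13a1 had means under 0.5 RPKM and were not tested. Of the 10 untested genes, 2 stood apart with higher levels in the KO-labelled libraries (Col2a1 and Col24a1). Another 6 stood apart with lower ones (Col6a4, Col6a6, Col9a1, Col9a2, Col13a1 and Col26a1). The highest value among the 10 was 0.649 RPKM, and the share among all untested genes was not counted. Col26a1 was 0.248 to 0.489 RPKM in control and 0.00821 to 0.0503 RPKM in the KO-labelled libraries, and Col13a1 was 0.505 to 0.649 and 0.301 to 0.403 RPKM, each without overlap.

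The 120 bases before the RefSeq start are shown for the 2 tested genes with the largest absolute log2 fold changes in epithelium and for Col3a1, to which the Myc-CaP libraries return. All 3 windows are on the plus strand of GRCm38.p6: chr10:34389861-34389980 for Col10a1, chr11:51289800-51289919 for Col23a1 and chr1:45311418-45311537 for Col3a1. Capitals mark a match to TATAAA or to GGGCGG on either strand, so that CCGCCC is the latter read on the other strand, and CCAAT was searched too. Matches were taken anywhere in the window. The TATAAA of Col3a1 lies at the end far from the gene start, and that of Col10a1 nearer to it. TATAAA is in 6.3% of all 32851 windows of this length in the RefSeq table, CCAAT in 21.3% and GGGCGG in 26.5%. Of the 35 collagen genes matched to that table, 3, 6 and 18 hold them in any of their 38 windows. These are counts of genes, while the shares above are of single windows. Both count letters and not bound sites.
Col10a1: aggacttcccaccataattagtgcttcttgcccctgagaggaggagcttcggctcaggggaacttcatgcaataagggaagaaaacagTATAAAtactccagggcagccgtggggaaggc
Col23a1: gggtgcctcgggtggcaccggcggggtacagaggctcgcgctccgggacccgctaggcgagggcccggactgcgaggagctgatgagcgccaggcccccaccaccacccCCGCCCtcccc
Col3a1: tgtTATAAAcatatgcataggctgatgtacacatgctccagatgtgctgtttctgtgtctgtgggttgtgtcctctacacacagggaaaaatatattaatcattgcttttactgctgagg

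Because the abundant chains were low together in control B and KO-labelled C, levels were also taken relative to Col1a1 in the same library. This measure was chosen after the values were seen and is given without a test. Col3a1 stood at 0.810 to 0.843 of Col1a1 in control and 0.772 to 0.855 in the KO-labelled libraries, so their proportion overlapped. Col1a2 stood at 0.739 to 0.765 of Col1a1 in control and 0.621 to 0.649 in the KO-labelled libraries, a gap that its own level did not show. Col12a1 was 0.0117 to 0.0123 of Col1a1 against 0.0369 to 0.0401, and Col5a2 0.0539 to 0.0568 against 0.0860 to 0.0942. Col6a1 went the other way, at 0.195 to 0.209 against 0.0696 to 0.0884, as did the fibroblast proteoglycan gene Dcn at 0.806 to 0.898 against 0.189 to 0.299. Fibroblast markers did not all follow Dcn, since Fap and Pdpn were called higher in level. The KO-labelled libraries thus overlapped control in Col1a1 and Col3a1, and were called lower in Dcn, Col6a1 and Col6a2 and higher in Col12a1 and Col5a2.

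**Figure D3:**
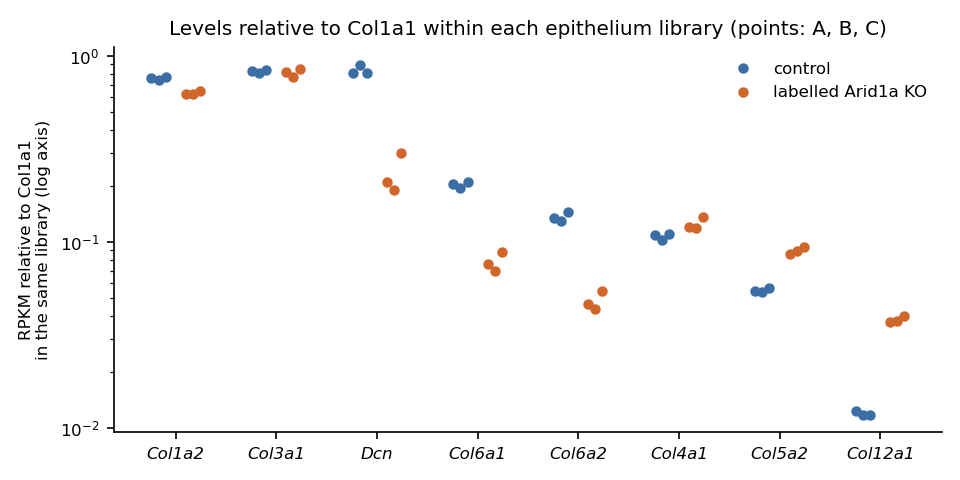
RPKM relative to Col1a1 in the same library (vertical log axis) for 7 collagen chain genes and the fibroblast gene Dcn, in the 3 control libraries and the 3 KO-labelled ones. Points are libraries A, B and C from left to right. Col3a1 overlaps between the groups, and every other gene shown stands apart, higher for Col4a1, Col5a2 and Col12a1 and lower for Col1a2, Dcn, Col6a1 and Col6a2.

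Genes that make and read collagen were called in both directions, at shares near the 57.1% of all genes. Of 32 genes of collagen synthesis and processing, 29 were tested and 19 called, 8 higher and 11 lower in the KO-labelled libraries. The leading 4 were Pcolce2, an enhancer of procollagen C-proteinase (log2 fold change -1.38), P4ha3, a prolyl hydroxylase subunit (1.36), Sparc, a collagen-binding matricellular protein (-0.96), and Lox, which starts the cross-linking of collagen (0.81). Of 10 collagen receptor genes, 9 were tested and 6 called, 4 higher and 2 lower. The leading receptors were Lair1, an inhibitory receptor of leukocytes (0.80), the discoidin domain kinases Ddr1 (-0.68) and Ddr2 (-0.60), and Itga1, a collagen-binding integrin chain (0.50). Leukocyte markers moved with Lair1, at the levels given above.

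Myc-CaP cells had a shorter list of collagens. Of the 44 genes, 14 were tested, 30 had a mean under 0.5 TPM, and 5 of these (Col6a6, Col9a1, Col19a1, Col25a1 and Col26a1) were listed at 0 in all 4 libraries. The 3 most abundant were Col5a1 at 72.0 to 77.2 TPM, Col4a1 at 64.3 to 74.1 TPM and Col4a2 at 57.8 to 69.7 TPM. Col17a1 was at most 0.119 TPM and Col7a1 0.299 to 0.988 TPM, and the luminal epithelial markers Epcam, Cdh1 and Krt18 were at most 0.128, 0.386 and 0.658 TPM. Krt8, the other gene of that list, was 1.07 and 0.790 TPM with the empty vector and 40.3 and 38.8 TPM in Arid1a KO. Serpinh1, which encodes the collagen chaperone of the endoplasmic reticulum, was 0.347 to 1.96 TPM, while Sparc was 125 to 137 TPM. All collagen genes together made up 0.0217% to 0.0283% of the summed TPM.

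The Arid1a KO label in Myc-CaP went with 1 call among the collagen genes. This was 1 of 14 tested, against 6.43% of all 13974 genes tested, and it was higher (4.54% of all genes were called higher and 1.89% lower). Groups stood fully apart in 7 of the 14, of which 1 was higher and 6 lower, against 51.5% of all genes in either direction. The 14 genes had a median log2 fold change of -0.37 and all tested genes one of -0.01. Of the 14, 3 (Col5a2, Col7a1 and Col11a2) had a mean under 0.5 TPM in 1 group.

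The called gene was Col4a5, a chain of the restricted type IV networks. It was 4.64 and 5.30 TPM with the empty vector and 8.27 and 8.65 TPM in Arid1a KO (log2 fold change 0.67 ± 0.11 SE, limma adjusted p = 0.041). Both KO libraries were above both empty vector libraries. Leaving out 1 library gave 0.59 to 0.74 without a call, in fits where the lone library is assumed to vary like the other group and 47 to 76 genes were called in all, against 899. Its head-to-head neighbour Col4a6 was listed at 0 with the empty vector and reached 0.0536 TPM in Arid1a KO. Among the abundant basement membrane chains, Col4a1 was 67.2 and 74.1 TPM with the empty vector and 64.3 and 68.8 TPM in KO (-0.08 ± 0.08 SE, limma adjusted p = 0.592). Col4a2 was 66.7 and 69.7 TPM with the empty vector and 57.8 and 63.1 TPM in KO (-0.17 ± 0.07 SE, limma adjusted p = 0.249).

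The other 6 genes without overlap had their lower levels in KO and were not called, although Col4a2, Col11a1 and Col12a1 were called lower when the library number was a term. Col12a1 was 9.03 and 11.0 TPM with the empty vector and 5.24 and 6.36 TPM in KO (log2 fold change -0.70 ± 0.15 SE, limma adjusted p = 0.067). Col11a1 was 4.54 and 5.59 TPM with the empty vector and 2.76 and 3.02 TPM in KO (-0.64 ± 0.15 SE, limma adjusted p = 0.082). Both genes were called higher in the KO-labelled sorted epithelium. Col6a3 (-0.45), Col20a1 (-0.37), Col7a1 (-0.35) and Col4a2 made up the rest. Col7a1 was 0.624 and 0.988 TPM with the empty vector and 0.299 and 0.523 TPM in KO, with an SE of 0.23 on the log2 scale. Col5a1, the most abundant collagen gene of the line, had a log2 fold change of -0.00 ± 0.07 SE.

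**Figure D4:**
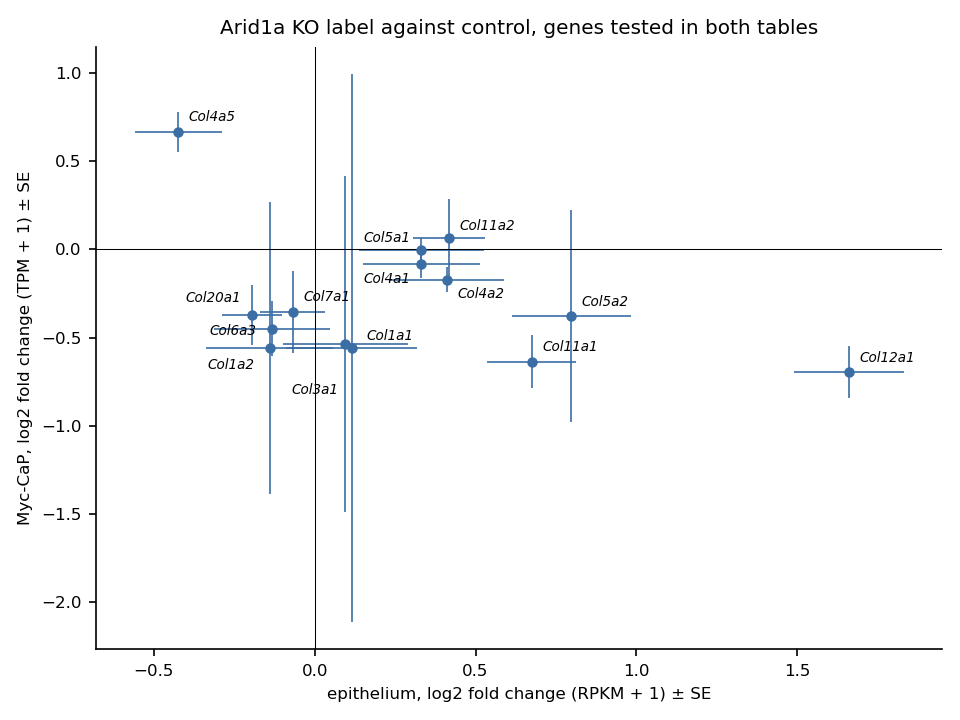
Log2 fold change with the Arid1a KO label in sorted epithelium (horizontal axis, RPKM + 1) and in Myc-CaP (vertical axis, TPM + 1) for the 14 collagen chain genes tested in both tables, with limma SE as bars. Col12a1 and Col11a1 lie at the lower right (1.66 and -0.70, 0.67 and -0.64), Col4a5 at the upper left (-0.42 and 0.67), and Col1a1, Col1a2, Col3a1 and Col5a2 have long vertical bars.

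Of the wider lists in Myc-CaP, to be read against the 6.43% of all genes that were called, 3 of 22 tested synthesis and processing genes were called: Pcolce, the main enhancer of procollagen C-proteinase (log2 fold change 1.09), Loxl4 (0.63) and Loxl3 (-0.44), relatives of Lox. Of the 7 hemidesmosome and laminin-332 genes reported here, 2 were called: Lama3 (0.74) and Lamb3 (0.70). Of 5 tested other basement membrane genes, 3 were called, all higher: Agrn (0.52), Lamb2 (0.43) and Lama5 (0.40). The keratins Krt8 and Krt15 were higher, at 4.40 and 1.46 on the log2 scale. Endothelial, glial and leukocyte markers each summed to at most 1.36 TPM.

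The large SEs of Col1a1, Col1a2, Col3a1 and Col5a2 in Myc-CaP came from libraries of the same label. Col1a1 was 0.211 and 19.4 TPM in empty vector libraries 1 and 2 and 0.347 and 7.45 TPM in KO libraries 1 and 2. Col1a2 was 0.437 and 5.96 TPM in empty vector 1 and 2 and 0.440 and 2.19 TPM in KO 1 and 2. Col3a1 was listed at 0 in both libraries numbered 1 and was 4.85 TPM in empty vector 2 and 1.77 TPM in KO 2. Within each label the library numbered 2 was the high one, so that the labels overlapped and the numbers did not.

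A test of the number, with the label as a term, called Col1a1 and Col3a1. These were 2 of 14 tested, against 3.53% of all genes, both higher in number 2 (2.22% of all genes were called higher and 1.31% lower in number 2). The numbers did not overlap in 6 of the 14, all higher in number 2, against 34.0% of all genes in either direction. The log2 difference, number 2 minus number 1, was 3.36 ± 0.35 SE for Col1a1 (limma adjusted p = 0.028) and 2.01 ± 0.32 SE for Col3a1 (limma adjusted p = 0.049). Col1a2 (1.71 ± 0.31 SE, limma adjusted p = 0.061) and Col5a2 (1.17 ± 0.31 SE, limma adjusted p = 0.117) stood apart in the same direction without a call. Col5a2 was listed at 0 in empty vector 1 and was 2.04, 0.0366 and 0.736 TPM in empty vector 2, KO 1 and KO 2. The call of Col1a1 was lost in 4 of 7 alternative settings and that of Col3a1 in 5 of 6.

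The raw levels of Col1a1 were 91.8 times higher in empty vector 2 than in empty vector 1, and 21.5 times higher in KO 2 than in KO 1. The 4 genes kept near-equal proportions in both libraries numbered 2. Relative to Col1a1 in empty vector 2 and KO 2, Col1a2 stood at 0.307 and 0.294, Col3a1 at 0.250 and 0.238, and Col5a2 at 0.105 and 0.0987. Empty vector 2 was above KO 2 by 2.60 times for Col1a1, 2.72 times for Col1a2, 2.73 times for Col3a1 and 2.77 times for Col5a2. In sorted epithelium, where the unit is RPKM, Col1a2 and Col3a1 stood nearer to Col1a1, at 0.621 to 0.765 and 0.772 to 0.855. These ratios were computed after the levels had been seen and carry no test.

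The abundant chains of the line differed by at most 1.10 times between libraries of the same label. Col4a1 was 1.10 times higher in empty vector 2 than in empty vector 1 and 1.07 times higher in KO 2 than in KO 1 (log2 difference 0.12 ± 0.04 SE, limma adjusted p = 0.168). Col5a1 had a log2 difference of 0.09 ± 0.04 SE and Col4a2 of 0.09 ± 0.04 SE, neither called. Of the other lists, the number test called Itgb1, a collagen receptor chain (0.17), and Cd151, a hemidesmosome tetraspanin (-0.24). These were 1 of 3 tested receptor genes and 1 of 7 hemidesmosome and laminin-332 genes, against 3.53% of all genes. The numbers overlapped in Cd151. Col3a1 and Col5a2 lie tail to tail 24614 bases apart on chromosome 1, while Col1a1 is on chromosome 11 and Col1a2 on chromosome 6.

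Of 3 tested smooth muscle markers, 1 was called by number, against 3.53% of all genes, and it was higher in number 2 (2.22% of all genes). The 6 smooth muscle markers summed to 1.36 and 2.13 TPM in the libraries numbered 1 and to 18.0 and 8.80 TPM in empty vector 2 and KO 2. Acta2, smooth muscle actin, was listed at 0 in empty vector 1 and was 4.89, 0.0427 and 2.27 TPM in empty vector 2, KO 1 and KO 2 (log2 difference 2.11 ± 0.29 SE, limma adjusted p = 0.041). Actg2, the other smooth muscle actin, was 0.0867 and 7.49 TPM in empty vector 1 and 2 and 0.276 and 2.50 TPM in KO 1 and 2. The 6 leukocyte markers, none of them tested, summed to 0.258 and 0.0912 TPM in empty vector 1 and KO 1 and to 1.36 and 0.642 TPM in empty vector 2 and KO 2. Among them Lyz2, a lysozyme of myeloid cells, was listed at 0 in both libraries numbered 1 and was 1.23 and 0.498 TPM in empty vector 2 and KO 2. The 10 fibroblast markers summed to 7.91 and 9.12 TPM with the empty vector and 7.52 and 7.31 TPM in KO, with Lum, Thy1, Fap and Pdpn at 0 in all 4 libraries. Dcn was at most 0.123 TPM. Pdgfra was 6.37 and 6.97 TPM with the empty vector and 5.05 and 5.01 TPM in KO. Fbln1 was 1.44 and 1.91 TPM with the empty vector and 2.32 and 2.18 TPM in KO. The part of any other cell in the Col1a1 and Col3a1 levels was not tested, and the labels do not say what the numbers mark.

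**Figure D5:**
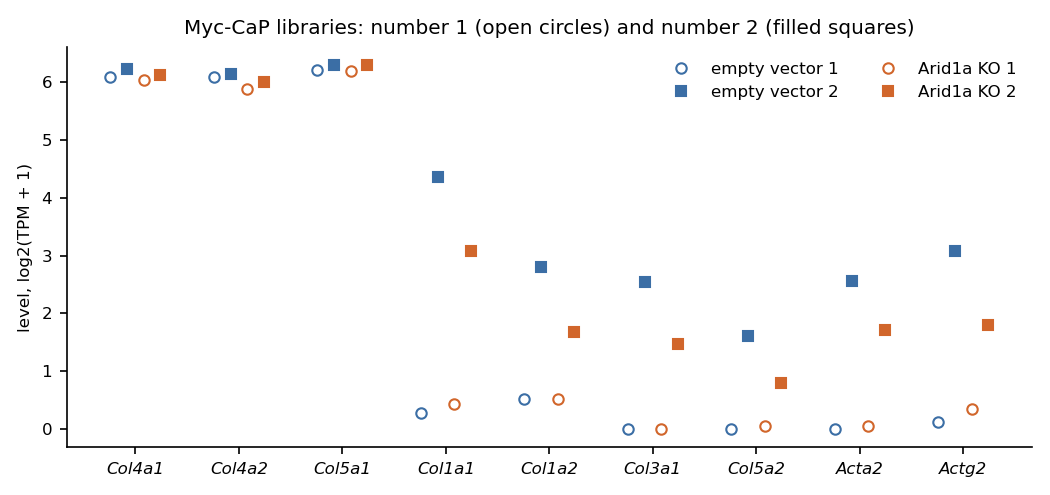
Level on the log2(TPM + 1) scale (vertical axis) of 7 collagen chain genes and the smooth muscle genes Acta2 and Actg2 in the 4 Myc-CaP libraries. Open circles are libraries numbered 1 and filled squares those numbered 2, blue for empty vector and orange for Arid1a KO. Col4a1, Col4a2 and Col5a1 lie together near 6, and the other 6 genes are under 1 in number 1 and higher in number 2, most in empty vector 2.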

How the data were processed

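RNA-seq was analysed in 10 libraries in 4 groups, taken from the genotype label. Reads were paired-end, and the authors mapped them to GRCm38 (mm10) before counting per gene with HTSeq. The methods name TopHat2 as the aligner and the submitters' processing notes HISAT2. The authors deposited RPKM values for the 6 epithelium libraries and TPM values for the 4 Myc-CaP libraries, and the gene lengths behind them are not given in the sources used here. Neither unit is a count, so tests for counts were not used, and each table was analysed alone.

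Values were set to log2(value + 1). Genes averaging 0.5 or more entered the test with limma 3.58.1 (lmFit, eBayes with trend, two-sided) in R 4.3.3, with Benjamini-Hochberg correction over all genes of a table. The Myc-CaP number test had the label as a term. The script was checked on simulated data. The collagen genes, the other gene lists and the tests were chosen with earlier results of these data known. Any collagen gene could be named. Values in every library were given for Col1a1, Col1a2, Col3a1, Col4a1, Col4a2, Col7a1, Col17a1 and each called gene with an absolute log2 fold change of at least 1, and in each other list up to 4 called genes of largest change were named, with others only where a result turned on them. Some items are not reported here, and the gene lists are counted without them.

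Depth, read from steps between low values with GENCODE M21 lengths, was about 28.8 to 36.3 (in units of 1e+06 reads) in epithelium, an estimate since 20.9% to 24.0% of low values came out whole within 0.03. TPM keeps relative depth only, and the Myc-CaP libraries were within 1.15 times of the shallowest. Counting intervals are therefore left out, and a value of 0 is written as listed at 0. All 44 collagen genes matched GENCODE M21 by symbol. Promoter windows came from RefSeq (GRCm38.p6). Figures were drawn with matplotlib 3.10.9.

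Alternatives were a pseudocount of 0.1, no filter, a minimum mean of 5, quantile normalization, rescaling to the same sum, eBayes without trend, the study's thresholds (unadjusted p under 0.05 and 1.5-fold), a replicate block, no label term for the number test, and leaving out each library.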

Additional observations from a re-analysis of the deposited data

Results flagged for a closer look

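Some genes had fold changes of opposite sign with the Arid1a KO label in the 2 systems, every KO library lying above the controls in one and below them in the other, though not all were called in both. Groups stood fully apart, in either direction, in 66.7% of all genes tested in epithelium and 51.5% in Myc-CaP. The share of all genes apart in opposite directions was not counted, so the genes below are no result about collagens as a family. The difference between systems was not tested, because the tables were normalized separately, and the RNA level of Arid1a was lower only in the Myc-CaP libraries.

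Of the collagen chain genes, Col12a1 had log2 fold changes of 1.66 in epithelium and -0.70 in Myc-CaP, Col11a1 of 0.67 and -0.64, and Col4a5 of -0.42 and 0.67. In Myc-CaP Col12a1 and Col11a1 were not called, and the calls of Col4a5 were lost in 7 of 14 alternative settings in epithelium and 6 of 12 in Myc-CaP. Among the genes of the wider lists that were called in both, Pcolce had -0.72 in epithelium and 1.09 in Myc-CaP, Lamb2 -0.67 and 0.43, Loxl3 0.60 and -0.44, and Agrn -0.22 and 0.52. Krt15 had -0.37 in epithelium (limma adjusted p = 0.064, not called) and 1.46 in Myc-CaP, and Ddr1 had -0.68 in epithelium and 0.11 in Myc-CaP (limma adjusted p = 0.456, not called). Only the collagen genes and, in each other list, up to 4 called genes of largest change per table were searched. Other listed genes met the same rule without a call in Myc-CaP, among them Plod2 (0.69 in epithelium and -0.50 in Myc-CaP) and Ppib (-0.69 and 0.16).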

How the results depend on the processing

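With 2 or 3 libraries a group and no counts, small differences were not resolved. In epithelium the 17 called collagen genes became 14 to 20 in the other settings on all libraries (15 to 21 leaving out 1 library) and 8 of 21 tested at a minimum mean of 5, where fewer genes are tested. Rescaling to the same sum shifted the all-gene median log2 fold change from -0.03 to 0.11, and 64.6% rather than 48.1% of calls were then higher. It turned the sign of Col14a1 (0.052), Col17a1 (0.12), Col1a2 (0.038, and 0.060 with quantile normalization), Col27a1 (0.042), Col6a3 (0.037) and Col7a1 (0.10), none called. Leaving out 1 library turned the sign of values that were not called on all libraries, with ranges of -0.012 to 0.30 for Col15a1, -0.049 to 0.31 for Col1a1, -0.32 to 0.036 for Col1a2, -0.15 to 0.012 for Col27a1, -0.083 to 0.26 for Col3a1, -0.34 (called, without control B) to 0.0088 for Col6a3 and -0.14 to 0.017 for Col7a1. The cause was not tested.

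In Myc-CaP the single call (limma) became 0 without a filter and 0 without trend, 2 with quantile normalization, 3 at the study's thresholds and 4 with a replicate block (Col4a2, Col11a1, Col12a1 and Col4a5). It was 0 in each fit that left out 1 library, and in these fits with 0 calls between 3 and 5 collagen genes had an unadjusted p under 0.05. There the ranges were -2.60 to 1.48 for Col1a1, -1.70 to 0.58 for Col1a2, -1.81 to 0.74 for Col3a1, -0.054 to 0.045 for Col5a1 and -0.054 to 0.11 for Col11a2. The 2 calls by number became 1 at a pseudocount of 0.1 and 1 at a minimum mean of 5, and 0 without a filter, 0 with quantile normalization, 0 without trend and 0 without the label term, with 4 to 6 genes at an unadjusted p under 0.05 in the fits with 0 calls. The number test without each library was not run, since it leaves no residual degrees of freedom.

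No label says what the replicate names share, and they were not taken as pairs. Deviations of same-named libraries correlated at 0.041, 0.0094 and -0.057 in epithelium, where the replicate block left 17 calls. In Myc-CaP, with only 2 numbers, the correlation was 0.19. The number test called 493 genes, and the replicate block raised the calls over all genes from 899 to 2771. Over all genes the number test called 0 without trend, 0 without a filter, 0 without the label term and 4 with quantile normalization. Whether the libraries share variation by number therefore depends on the setting. In all, 430 of 463 results for single genes kept their direction and call in epithelium, 135 of 156 in Myc-CaP by label and 81 of 90 by number.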
